A study of Mus musculus with 2 samples.

Results

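The SOCS and CISH genes encode the 8 members of one family of cytokine feedback inhibitors, namely Cish and Socs1 to Socs7, and were read here in bone marrow-derived macrophages (BMDMs) with and without IL-4. The members were chosen by gene name, with earlier values of these arrays known, so their levels and differences are a description and carry no test. A probe was taken as a member when its RefSeq accession on the array belonged to one of the 8 genes, which gave 11 probes in 20 spots out of 39429 probes for 20656 named genes. One array was hybridised with RNA of untreated BMDMs and 1 with RNA of BMDMs given IL-4 for 18 h. Per the study's methods the marrow came from male mice of genotype Crif1 f/f at 8 weeks of age, so both groups carry the floxed Crif1 allele, no Cre is named for the arrays, and the cells were grown from marrow with M-CSF. The dose of IL-4 on the array, and whether the groups came from the same or from pooled animals, are not given in the sources used here. Each condition was read on a single array, so there is no replicate check and no p-value, and the precision is limited by how few arrays there are.

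IL-4 signals through a receptor of the IL-4Rα chain and a partner chain, whose Janus kinases phosphorylate the receptor and the transcription factor STAT6. Genes switched on by STAT factors include the SOCS family, whose proteins return to the activated receptor or its kinase and shut the signal down. Each member has an SH2 domain, which binds phosphotyrosine, and a C-terminal SOCS box, which recruits elongin B, elongin C and cullin 5 into a ubiquitin ligase. CIS and SOCS1 to SOCS3 have a short N-terminal part and are the members best known as cytokine-induced inhibitors. SOCS4 to SOCS7 have a long N-terminal part and have mostly been linked to growth factor and insulin signalling.

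Values are background-subtracted intensities in arbitrary units. For differences, the log2 intensity was scaled by subtracting the 75th percentile of its array, and the untreated value was subtracted from the IL-4 value. An intensity is compared only within its own probe, since probes differ in how brightly they report the same amount of RNA. A probe counted as well above background when the scanner software set that flag for most of its spots, and all 11 probes were well above background on both arrays. No member was left out by the filter on dim probes and none of the members' folds is a bound. Errors are given in 2 ways, neither of which covers the spread between cultures. The software error comes from the error that the scanner software attaches to each spot, propagated to the log2 difference. The spot SD is the median SD of that difference over probes printed in 10 spots with a similar signal.

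Cish and Socs1 had by far the highest differences of the family after IL-4, Socs2 was about 2-fold higher, Socs5 and Socs3 were higher by less than 2-fold, and Socs7, Socs4 and Socs6 differed by less than their software error. The members Cish, Socs1 and Socs2 thus passed 2-fold upward, 3 of 8, and 0 of 8 passed it downward. The same 2-fold limit was passed upward by 3.06% and downward by 3.35% of the 14073 named genes that either array detected well above background. Because the members were chosen with these values in view, nothing is read from the gap between the shares. The median log2 difference was 0.53 over the 8 members and -0.01 over the 12744 genes that were well above background on each array.

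**Figure D1:**
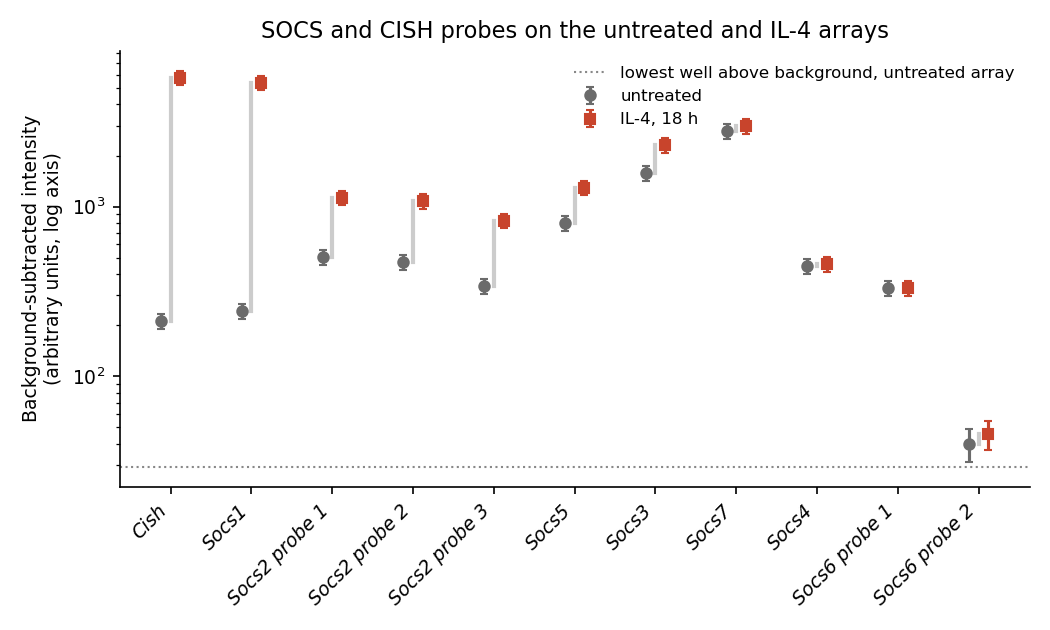
Background-subtracted intensity (arbitrary units, log axis) of the 11 SOCS and CISH probes on the untreated array (grey circles) and the IL-4 array (red squares), with the software's error as bars and the lowest signal well above background as a dotted line. Cish goes from 212 to 5761 and Socs1 from 242 to 5376, while the points of Socs7, Socs4 and both Socs6 probes lie within each other's bars; heights should be compared only within a probe.

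Cish encodes CIS, which binds phosphorylated receptor chains and is a classical STAT5 target downstream of IL-2, IL-3, GM-CSF and erythropoietin. Its probe had an intensity of 212 in untreated BMDMs and 5761 after IL-4. The untreated signal was low but stood well clear of the dimmest signal still well above background on that array, which was 29.2. The log2 difference was 4.66 ± 0.21 (software error) with a spot SD of 0.058, or 25.4-fold. Among genes well above background on both arrays this was the 4th highest difference of 12744. The largest effect of another setting was that of normexp background correction, which adds an offset to all signals and gave 4.24.

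Socs1 encodes SOCS1, which has a kinase inhibitory region that blocks Janus kinases directly and is a known inhibitor of interferon and IL-4 signalling. Its probe had an intensity of 242 in untreated BMDMs and 5376 after IL-4. The log2 difference was 4.37 ± 0.21 (software error) with a spot SD of 0.058, or 20.7-fold, and ranked 6th of the same 12744 genes. The gap between Cish and Socs1 was 0.29 on the log2 scale, which exceeds the combined spot SD of 0.082 but equals their combined software error of 0.29. Cish was above Socs1 under all 12 alternative settings that give a value for each member. Settings other than quantile normalization, cyclic loess and normexp moved both genes alike, so they could not change this order.

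The annotated start regions of these genes were read for the DNA motifs of the factors above. RefSeq windows of GRCm38.p6, 250 bases before to 50 bases after the start, were found for 4 of the 8 members, Cish, Socs1, Socs3 and Socs4. The motif TTCNNNGAA is the palindrome bound by most STAT dimers and the same half-sites with 4 bases between them, TTC and GAA, are the wider form that STAT6 favours. Both were searched on both strands, and each matches its own reverse complement. Over all 32851 windows, 8.30% held at least 1 TTCNNNGAA and 6.95% at least 1 match of the wider form. No member window held the wider form.

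The stretch of Cish at chr9:107296655-107296680 (plus strand, GRCm38.p6) is shown because it holds 2 matches of TTCNNNGAA, in capitals, the first at bases 1 to 9 and the second at bases 12 to 20 counted from the annotated start.
Cish: agttTTCCTGGAAagTTCTTGGAAat
At least 2 matches were present in 0.457% of all windows. Only 3 of the 32851 windows had 2 matches whose first bases lay within 12 bases of each other, a distance chosen after the Cish sequence was read.

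The 250 bases before the start of Socs1, chr16:10785537-10785786 (minus strand), held neither STAT motif. They are shown because they hold the direct repeat of GAAA with 2 bases between the copies, which interferon regulatory factors bind and which was added to the search after the sequence was read.
Socs1: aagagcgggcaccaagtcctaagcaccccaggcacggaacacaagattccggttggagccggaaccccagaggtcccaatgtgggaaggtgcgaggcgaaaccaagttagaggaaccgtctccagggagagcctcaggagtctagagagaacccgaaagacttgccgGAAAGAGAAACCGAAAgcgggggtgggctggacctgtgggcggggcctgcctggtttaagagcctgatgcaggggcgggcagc
The capitals mark 2 matches of this repeat that share 4 bases, at -83 to -74 and -77 to -68 from the start. On both strands, 3.44% of all windows held at least 1 such repeat. In 38 windows, or 0.116%, 2 repeats had first bases within 6 bases of each other, a distance chosen after the Socs1 sequence was read.

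The Socs3 window holds 1 TTCNNNGAA, at -154 to -146. The start of that window lies 970 bases inside the gene's RefSeq range, so the match is upstream of 1 annotated start but within the range of the gene, whereas the starts used for Cish, Socs1 and Socs4 are at the edge of the gene. The match, at chr11:117969510-117969524 (minus strand) with its flanks, is shown beside the Cish stretch because the motif is the same and Socs3 had a much smaller difference.
Socs3: agccTTCTTAGAAgg
The window of Socs4, which did not differ beyond its error, held none of the 3 motifs. G and C made up 55.2% of the bases before the start in Cish, 61.2% in Socs1, 71.6% in Socs3 and 70.4% in Socs4, against a median of 52.4% over all windows. A match is a run of letters and not evidence of binding, and no binding was measured on these arrays.

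**Figure D2:**
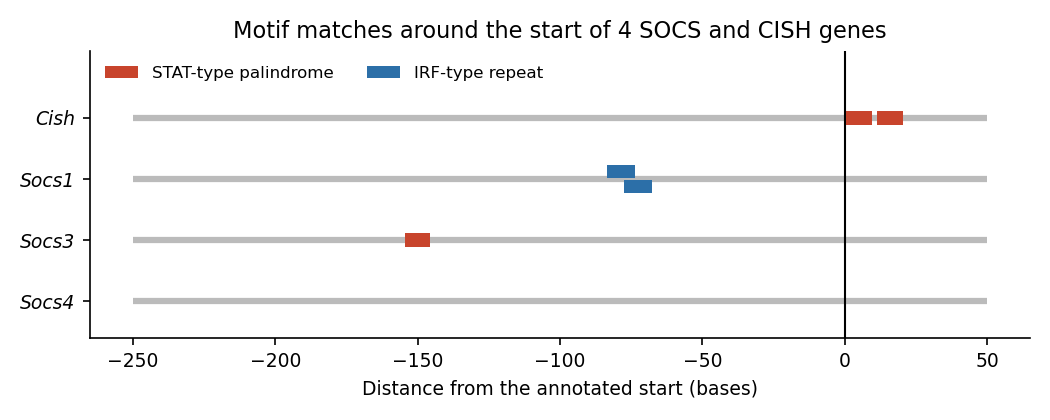
Positions of motif matches relative to the annotated start (0, vertical line) in the windows of Cish, Socs1, Socs3 and Socs4, in bases; red bars are TTCNNNGAA and blue bars the GAAA repeat, and grey lines span the 250 bases before and 50 bases after the start. The Cish matches lie at 1 to 20, those of Socs1 at -83 to -68, that of Socs3 at -154 to -146, and Socs4 has none; the Socs3 start lies 970 bases inside the gene's range.

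Socs2 encodes SOCS2, which limits growth hormone receptor signalling and, like CIS, acts by binding receptor phosphotyrosines. It was read by 3 probes, 1 of which was printed in 10 spots. The brightest probe had an intensity of 506 in untreated BMDMs and 1129 after IL-4, a log2 difference of 1.06 ± 0.21 (software error), or 2.08-fold. The probe printed in 10 spots ranged from 451 to 518 in untreated BMDMs, with a median of 474, and from 1023 to 1152 after IL-4, with a median of 1077. Every spot after IL-4 was thus brighter than every untreated spot. The log2 difference at these 10 positions was 1.07 ± 0.045 (SD over spots) and ran from 1.01 to 1.15. The dimmest probe had 342 and 828, a log2 difference of 1.17. The 3 probes differed from each other by less than the software error. The difference of the brightest probe was close to the 2-fold limit and went to 0.97 with normexp, while it stayed above 1 in the other 11 settings, with a highest value of 1.37 under spike-in scaling.

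**Figure D3:**
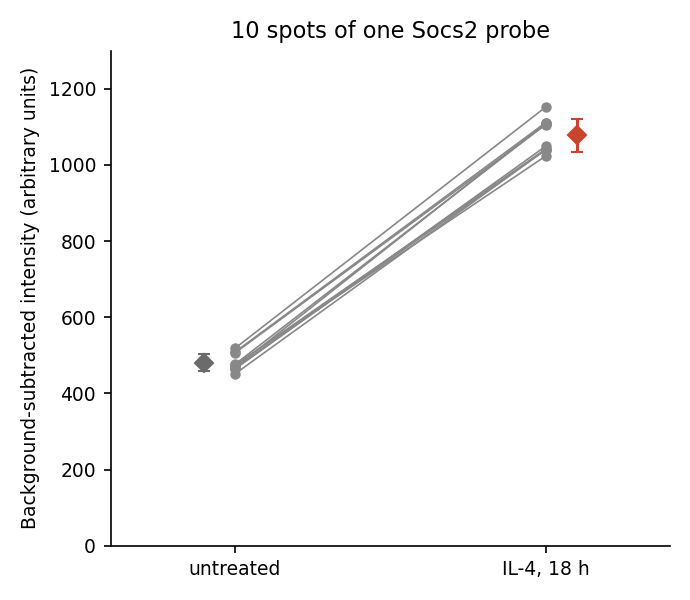
Background-subtracted intensity (arbitrary units) at each of the 10 spots of one Socs2 probe on the untreated and the IL-4 array, with a line joining the same position on both arrays and diamonds with bars for the mean and SD over spots. The untreated spots lie between 451 and 518 and the IL-4 spots between 1023 and 1152; the spots share 1 sample per array and are not replicates of the condition.

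Socs3 encodes SOCS3, which binds gp130 and the G-CSF receptor and is the main brake on STAT3. It had an intensity of 1568 in untreated BMDMs and 2316 after IL-4. The log2 difference of 0.46 ± 0.20 (software error) corresponded to 1.38-fold. This exceeded the spot SD of 0.057 and the software error, and it was between 0.41 and 0.77 in the alternative settings, so it stayed under 2-fold in each of them. Socs1 and Socs3 are the members with a kinase inhibitory region, and their differences lay 3.91 apart on the log2 scale.

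Among the members with a long N-terminal part, Socs5 was the only one above its software error with 75th percentile scaling. With spike-in scaling Socs7 (0.31) and Socs4 (0.25) also exceeded theirs, of 0.20 and 0.21. SOCS5 has been linked to the IL-4 receptor and the EGF receptor. Its probe had an intensity of 799 in untreated BMDMs and 1296 after IL-4, a log2 difference of 0.60 ± 0.20 (software error) with a spot SD of 0.057, or 1.51-fold. This exceeded the difference of 95.1% of the 12744 genes above, against 93.1% for Socs3. The gap of 0.13 between Socs5 and Socs3 was smaller than their combined software error of 0.29. Its difference was between 0.54 and 0.91 in the alternative settings.

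Socs4, whose product has been linked to EGF receptor turnover, had 445 in untreated BMDMs and 456 after IL-4, a log2 difference of -0.06 ± 0.21 (software error). Socs6 and Socs7 encode a related pair linked to insulin receptor and receptor tyrosine kinase signalling. The brighter Socs6 probe had 333 and 331, a log2 difference of -0.11 ± 0.21. The dimmer one had 40.1 and 45.6, near the lowest signal well above background, and a log2 difference of 0.08 with a spot SD of 0.24, so the signs of these probes differed within error. Socs7 had 2789 and 2984, a log2 difference of -0.0018 ± 0.20. The sign of Socs4, Socs6 and Socs7 changed with the scaling, and their highest values were 0.25, 0.20 and 0.31 under spike-in scaling.

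By subgroup, the log2 differences of Cish and Socs1 to Socs3 ran from 0.46 to 4.66 with a median of 2.71, and those of Socs4 to Socs7 from -0.11 to 0.60 with a median of -0.03. The values of the subgroups overlapped, since Socs5 was above Socs3, but the gap of 0.13 was within their combined software error of 0.29. In the order of differences, Cish, Socs1, Socs2, Socs5, Socs3, Socs7, Socs4 and Socs6, the neighbours Socs1 and Socs2, Socs2 and Socs5, and Socs3 and Socs7 were further apart than their combined software error, by 3.31, 0.46 and 0.46. Socs7, Socs4 and Socs6 were not separated from each other.

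**Figure D4:**
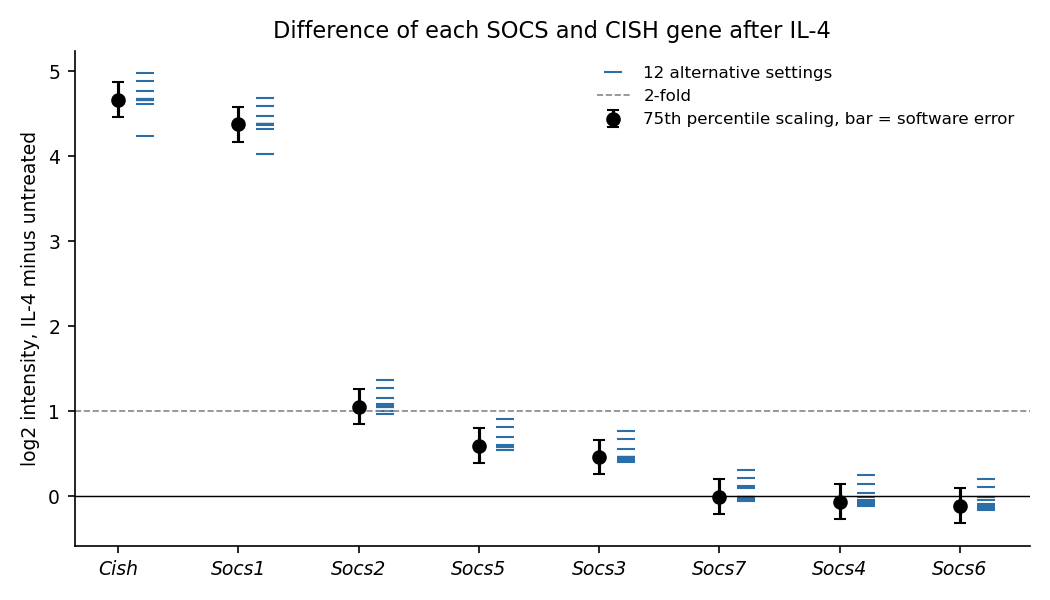
Log2 intensity difference, IL-4 minus untreated, of the brightest probe of each SOCS and CISH gene; black points are 75th percentile scaling with the software error as bars, blue ticks the 12 alternative settings, and the dashed line marks 2-fold. Cish (4.66) and Socs1 (4.37) stand apart from Socs2 (1.06), Socs5 (0.60) and Socs3 (0.46), and the bars of Socs7, Socs4 and Socs6 cross 0.

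Since a difference is a single number here, the genes most like each member that passed 2-fold were taken as those with the nearest log2 difference among the same 12744, a likeness that rests on 2 arrays. For Cish these were Scimp (4.59), Ccl24 (4.90) and Socs1 itself. For Socs1 they were Batf3 (4.23), Flt1 (4.21) and Scimp. Around Socs2 the distribution was dense, and Cnrip1 and Gm6994, both at 1.06, lay nearest to it, so its likeness to them carries little.

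The genes that carry the IL-4 signal to the SOCS genes showed few large differences. Of 16 genes of the IL-4 receptor, its kinases, STATs and IRS adaptors, 1 was at least 2-fold higher, 1 at least 2-fold lower and 13 within 2-fold, and the median of the 14 well above background on both arrays was 0.09. Jak2, the kinase shared by the GM-CSF, IL-3 and growth hormone receptors and a target of SOCS1, had 1518 in untreated BMDMs and 3694 after IL-4, a log2 difference of 1.18. Stat4 was well above background on the untreated array only, at least 3.34-fold lower after IL-4, and its log2 difference went from -1.74 to -0.91 with normexp. Il4ra, the IL-4Rα chain, had a log2 difference of 0.10 and Stat6 one of -0.29, which went to 0.01 with spike-in scaling.

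The list of SOCS box ligase partners held 9 genes, all well above background on both arrays and each within 2-fold. Elob and Eloc, which encode elongin B and elongin C, had log2 differences of 0.05 and -0.03, and Cul5, the cullin scaffold, had 0.20. The list had a median of 0.06 and its highest value was 0.46. The sign of Elob and Eloc changed with the scaling. Of 25 other SOCS box genes with a probe, such as the Spsb, Wsb and Asb families, none passed 2-fold upward, 1 passed it downward, 15 were within 2-fold and 8 were well above background on neither array. The remaining gene, Asb14, was well above background after IL-4 only, at least 1.64-fold higher, so its call is not settled, and it passed 2-fold in 4 of the 11 settings that give it a value. The lower gene was Asb18, which was well above background on the untreated array only, at least 2.29-fold lower, and it passed 2-fold in 6 of 11 settings.

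Inhibitors of the pathway outside the SOCS family were read from 13 genes, of which 2 were at least 2-fold higher, 0 lower and 10 within 2-fold. Usp18, an inhibitor of the type I interferon receptor, had 85.2 and 250, a log2 difference of 1.45 that went to 0.87 with normexp. Cblb, a ubiquitin ligase that dampens receptor signalling, had 1269 and 3139, a log2 difference of 1.21. The phosphatase genes Ptpn1 and Ptpn6 had log2 differences of 0.16 and -0.03, the second of which changed sign with spike-in scaling. Ptpn2 had 0.49 at its brightest probe and 0.25 and 1.12 at the others. The median of the 12 genes of this list on both arrays was 0.12.

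Receptors that SOCS proteins are known to restrain were also read, since they are where these inhibitors act. Of 20 such genes, 2 were at least 2-fold higher, 0 were at least 2-fold lower, 15 were within 2-fold and 3 were well above background on neither array. Il6st, which encodes gp130, the docking chain of SOCS3, had 2413 and 6933, a log2 difference of 1.42. Csf2rb, the chain shared by the GM-CSF, IL-3 and IL-5 receptors, had 17176 and 39150, a log2 difference of 1.09 that quantile normalization took just under 2-fold. The median of the 17 genes on both arrays was 0.01.

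Known STAT6 targets give the scale of the response in the same RNA. Of 17 listed genes, 15 were at least 2-fold higher, and the median of the 12 on both arrays was 3.40. The list was chosen with values of these arrays known and is no independent evidence of direction. Among those with larger differences or bounds than Cish and Socs1 were Arg1, Retnla, Pdcd1lg2, Il4i1 and Ccl24. Of the 12 listed STAT5 targets other than Cish and Socs2, 0 were at least 2-fold higher, 11 were within 2-fold, and the highest was Pim1 at 0.94, which passed 2-fold in 4 of the 12 settings and went to 1.25 with spike-in scaling. Of 11 STAT3 targets, 2 were at least 2-fold higher, Nfil3 at 1.20 and Etv3 just at the limit, and Fos was lower at -1.04. Etv3 passed 2-fold in 9 of the 12 settings and Fos in 7.

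**Figure D5:**
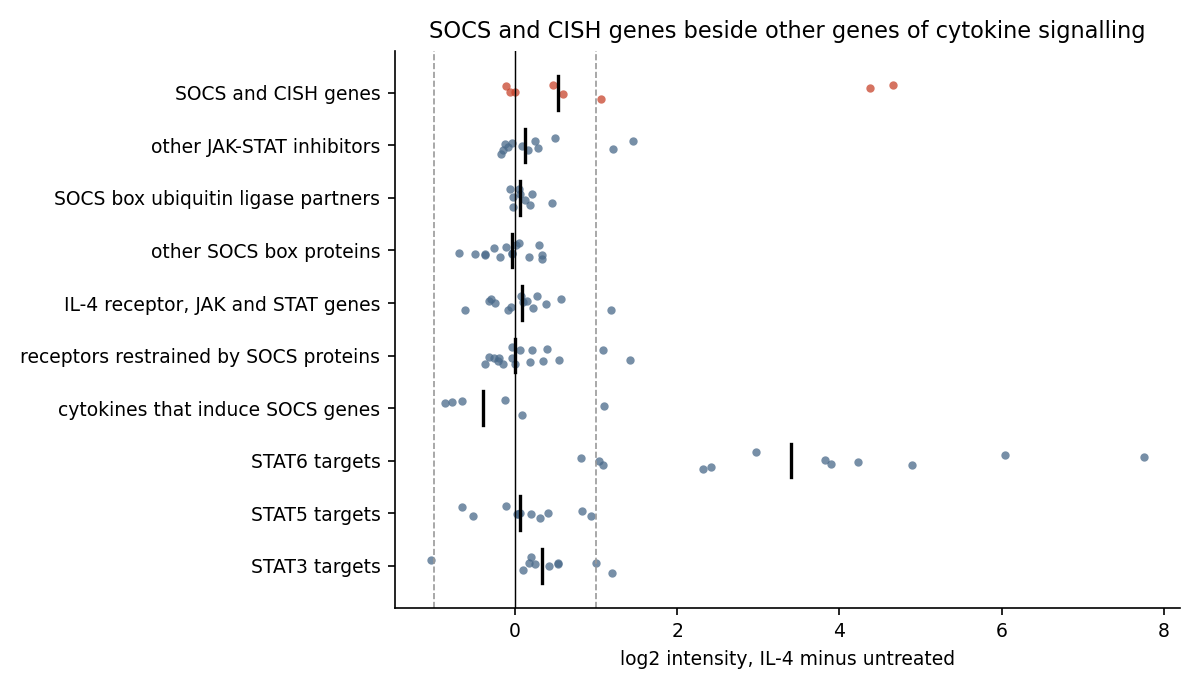
Log2 intensity difference, IL-4 minus untreated, of each gene well above background on both arrays in the SOCS and CISH family (red) and in lists of other cytokine signalling genes (blue), with the median of each list as a black bar and 2-fold as dashed lines. The STAT6 target list (median 3.40) reaches the range of Cish and Socs1, while the median of the SOCS box partners is 0.06 and that of the STAT5 targets 0.06.

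The RNA is a bulk measurement, in which fewer cells of a type and less RNA per cell cannot be told apart. The share of gene spots well above background was 59.8% in untreated BMDMs and 57.4% after IL-4, and no spot was saturated. All 7 macrophage markers with a probe were well above background on both arrays, and their median log2 difference was -0.71. Csf1r and Adgre1 were at 0.09 and 0.17, and Cd14, Fcgr1 and Mertk were at least 2-fold lower, at -1.42, -1.23 and -1.14. Lyz2 was at -0.70, and Itgam at -0.71 at its brightest probe and -0.27 and -0.24 at the others. With spike-in scaling Fcgr1 and Mertk were within 2-fold, at -0.92 and -0.83. Of the markers of other cells, 7 of 7 neutrophil, 4 of 4 fibroblast, 3 of 5 eosinophil, 2 of 6 mast cell and basophil, 2 of 8 lymphocyte and 2 of 4 dendritic cell genes were well above background on both arrays. These counts do not give the level. In untreated BMDMs the fibroblast genes had intensities from 4236 (Pdgfrb) to 58153 (Col1a1). The eosinophil genes detected had 70.4 (Ccr3) to 772 (Siglecf), with the limit above on comparing probes. The 2-fold limit was passed upward by none of the markers of other cells after IL-4, and downward by the mast cell marker Cpa3, which was well above background on the untreated array only and at least 3.5-fold lower. The 7 neutrophil genes had a median log2 difference of -0.23. The lowest were Ngp, Camp and Ltf at -0.80, -0.61 and -0.54. Elane was at -0.23, S100a8 at -0.17 and Cxcr2 at -0.04, while Mpo was higher at 0.30. The part of these cells in the SOCS values was not tested.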

How the data were processed

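Single-colour Agilent mouse gene expression arrays were hybridised with Cy3-labelled RNA of untreated and IL-4-treated BMDMs, 1 array each, on the same slide, and took their condition from the labels. The deposited scanner output was made by the authors with Feature Extraction 10.10.1.1. Its intensity per spot had its background subtracted and a spatial trend removed, with no scaling across arrays. It came together with the software's flags, coded 0 or 1, such as well above background, used here under the category other. A second deposited table holds the authors' processed log2 values, with column medians of 0.161 for untreated and 0.016 for IL-4, whose making is not given in the sources used here. Its differences lay within 0.001 of the scanner differences at the SOCS and CISH probes, so its scale and direction are settled there, and its centring stays unknown.

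Here, flagged outlier and control spots were left out, repeated spots were averaged per probe on the log2 scale, and each array was scaled by its 75th percentile. The brightest probe stood for a gene that had several. Where 1 array was not well above background the difference is a bound against the lowest signal well above background. The design was annotated on mm9, and a GRCm38.p6 table matched on RefSeq accession gave a symbol to 27229 of 39424 probes. Promoter sequences are RefSeq's on GRCm38.p6. Members, gene lists and alternatives were chosen with earlier results of these data known. Named genes are the 8 members, up to 4 genes of each list at least 2-fold changed, a few fixed genes whatever their value, and the 3 genes nearest to each changed member. The lists are other JAK-STAT inhibitors, SOCS box ligase partners, other SOCS box proteins, IL-4 receptor, JAK and STAT genes, receptors, cytokines, targets of STAT6, STAT5 and STAT3, and cell type markers. A further list and 1 nearest gene are not reported here. No test between conditions was run. The difference and bound step and the motif search were tested on simulated data. Alternatives were other scalings, scaling on 7 spike-in probes, normexp with an offset of 50 on median pixel intensity, other filters on dim probes, a fold of 1.5, other rules for spots and probes, and the authors' processed values. Python 3.11.15, numpy 2.4.6, pandas 2.3.3, matplotlib 3.10.9, R 4.3.3 and limma 3.58.1 were used.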

Additional observations from a re-analysis of the deposited data

How the results depend on the processing

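No paired analysis was possible because untreated and IL-4 BMDMs were read on a single array each, and no replicate could be left out. Socs1 and Cish were at least 2-fold higher in all 12 alternative settings, and Socs2 in 11. Of 96 values of single members in these settings, 66 moved by no more than the spot SD, 21 moved further with the same sign and 9 changed sign. Part of the 66 was fixed in advance and is no sign of stability. Every member was well above background on both arrays, so the filters on dim probes could not move it. The brightest probe of each member is 1 spot, so keeping outlier spots could move it only through the scaling. The authors' values lay within 0.001 of the scanner differences at the member probes, so they are nearly the same values. A median over probes could move only Socs2 and Socs6. The all-gene median of -0.01 became 0.20 with median scaling, 0.086 with no scaling, 0.0081 with cyclic loess and 0.30 with spike-in scaling. Median scaling, no scaling and spike-in scaling move every gene well above background on both arrays by the same amount. Cyclic loess and quantile normalization do not. The sign changed for Socs4 with median scaling (0.15), no scaling (0.037) and spike-in scaling (0.25), for Socs6 with median (0.11) and spike-in scaling (0.20), and for Socs7 with median scaling (0.21), no scaling (0.098), normexp (0.12) and spike-in scaling (0.31). The median of the members, 0.53, went to 0.74, 0.63 and 0.84 with median scaling, no scaling and spike-in scaling.

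Genes at least 2-fold higher, 431, numbered 248 with normexp, 743 with spike-in scaling, 881 with no filter on dim probes and 895 at 1.5-fold. Genes at least 2-fold lower, 472, numbered 151 with normexp, 299 with median scaling, 251 with spike-in scaling, 309 with quantile normalization and 870 in the authors' table. They numbered 2077 without a filter, 184 where both arrays had to be well above background and 1259 at 1.5-fold. Filters, bounds and the fold act on these counts, and on the shares below, by construction. Differences from the authors' table were taken without bounds. For scalings and normexp the cause was not tested. Of all genes past 2-fold 47.7% were higher, against 67.7% with median scaling, 64.9% with quantile normalization, 59.7% with cyclic loess, 57.8% with no scaling, 74.7% with spike-in scaling, 62.2% with normexp and 61.6% where both arrays had to be well above background. The share was lower than 47.7% with no filter (29.8%), in the authors' table (40.3%), at 1.5-fold (41.6%), with a 75th percentile taken from probes that both arrays detected (42.2%) and with the median over the probes of a gene (46.2%).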

Other observations

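Cytokines known to induce SOCS genes were mostly not well above background in these BMDMs. Of 20 such genes, 14 stayed below that level on each array, among them Ifng, Ifnb1, Il4, Il13, Il10, Csf2 and Csf3. Of the other 6, the median log2 difference was -0.39. Il6, which induces Socs3 through gp130, had an intensity of 65.6 in untreated BMDMs and 150 after IL-4, or 2.14-fold, and the log2 difference went to 0.45 with normexp. Il15 (-0.87), Il11 (-0.78) and Osm (-0.65) were lower by less than 2-fold. A signal not well above background limits what these arrays can show and does not mean that a transcript is absent.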
